A study of Rattus norvegicus with 6 samples.

Results

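Mir375 and Mir184 are 2 single-copy microRNA (miRNA) genes that are linked to the growth of pancreatic β-cells and to insulin secretion. They were chosen by gene symbol, and both symbols were found, so the members are 2 of the 32883 genes in the deposited table and 2 of its 456 miRNA rows. The small RNA libraries came from 6 clonal lines of INS-1(832/13)::mCherry, a rat insulinoma line that secretes insulin and carries a mouse Ins2 C-peptide-mCherry reporter transgene and a human INS-neoR transgene. Each line gave 1 library, and all lines were untreated in medium with 7.5 mM glucose. The 3 control lines (5-9, 2 and 16) lacked the domain of the Prader-Willi syndrome (PWS), an imprinted cluster of paternally expressed genes, on the silent maternal allele only. The 3 PWS lines (3, 19-1 and 19-4) lacked it on both alleles.

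All 6 lines shared the first, maternal deletion. Lines 2 and 16 came from line 5-9 cells given an EGFP control vector, and lines 19-1 and 19-4 were subclones of a single edited line. The lines are clones of related cells rather than animals, so each p-value rests on spread between these lines. Each takes lines 19-1 and 19-4 as separate samples. The comparison asked whether miRNAs of β-cells stood at other levels once the expressed copy of the domain was gone as well.

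A miRNA is cut from a hairpin transcript, loaded into an Argonaute protein and guided to messenger RNAs mainly by its seed, the bases near its 5′ end. In pancreatic islets miR-375 is among the most abundant miRNAs. It restrains insulin exocytosis, in part through myotrophin (Mtpn), and is needed for normal β-cell mass. miR-184 is also enriched in islets, falls there in insulin resistance, and represses Argonaute 2 (Ago2), itself a carrier of miR-375.

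The mature sequences are shown for how far each member stands from other miRNAs in the same libraries. They are written 5′ to 3′ from RefSeq (assembly GRCr8), with bases 2 to 8, the seed, in capitals:
rno-miR-375-3p: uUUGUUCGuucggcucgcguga
rno-miR-375-5p: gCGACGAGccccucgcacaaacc
rno-miR-184: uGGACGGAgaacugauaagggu

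None of the other 722 rat mature miRNAs in the RefSeq table had the seed of either miR-375 arm, and none of the other 723 had that of miR-184. The closest other mature sequence lay 8 edits from miR-375-3p, 9 from miR-375-5p and 8 from miR-184. This sets both members apart from families such as Mir7a, whose copies encode the same mature miRNA. The deposited values are per gene, so the 2 arms of miR-375 were not separated.

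In GRCr8 the Mir375 hairpin lies on the minus strand of chromosome 9 and the Mir184 hairpin on the minus strand of chromosome 8. The reads had been counted on Rnor_6.0, so coordinates are not given. The RefSeq span of Mir375 overlaps Cryba2, a lens crystallin gene, and the uncharacterised LOC134480387. Its neighbours Fev, a transcription factor gene, and Cfap65 lie on either side, and Mir184 lies between Ankrd34c and Rasgrf1. Over the 6 libraries Cryba2 and Fev had 2 reads each, Cfap65 had 10, Ankrd34c had 4 and Rasgrf1 had 3, so reads of surrounding genes were few beside those of the members. LOC134480387 had no row.

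The libraries held 7373691 to 16480475 reads, of which 88.5% to 90.1% fell on miRNA rows. The deletion was visible in every PWS line: the 36 Snord116 rows together, small nucleolar RNAs of the PWS domain, held 7492 ± 1711 normalized reads (SD, n = 3) in control lines and 2.61 ± 1.17 (SD, n = 3) in PWS lines. Normalized reads are gene counts divided by a size factor for each library. Of 13 β-cell markers all had reads, and the markers on miRNA rows, Mir375 included, supplied nearly all of their summed 1901663 to 3329534 normalized reads in control lines and 2048386 to 2842718 in PWS lines. Messenger RNAs are seen here only as small fragments, among them Ins1 at 194 normalized reads in control and 125 in PWS lines (log2 fold change -0.61 ± 0.36 SE), Ins2 at 21.1 and 7.45 (-2.03 ± 0.74, limma adjusted p 0.727, unadjusted 0.015) and Mafa with 4 reads, all in line 3. Of the 12 β-cell markers tested limma-trend, edgeR, DESeq2 and limma-voom called 0, and their log2 fold changes ran from that of Ins2 to 0.43 for Nkx6-1 with a median of -0.12. Markers of other cell types were few, and of the 24 that have a row 10 had no read in any line, among them glucagon (Gcg), somatostatin (Sst), pancreatic polypeptide (Ppy) and the duct keratin Krt19. The other 14 had 3969 reads in all, led by the neuronal miRNAs Mir124-1, Mir124-2 and Mir124-3, of which Mir124-1 had 196 normalized reads in control and 105 in PWS lines, and by Mir142, a miRNA of blood cells, at 60.5 and 59.8. Their summed level was 507 to 900.2 normalized reads in control lines and 306 to 609.9 in PWS lines. The log2 fold changes of the 7 tested ran from -0.95 for Mir124-1 to 0.67 for Mir143, a miRNA of muscle and stroma (27.7 normalized reads in control and 41.0 in PWS lines). Limma-trend, edgeR, DESeq2 and limma-voom called 0 of the 7 tested, with an unadjusted limma p under 0.05 for Mir124-1 and Mir124-2, and the part of these markers in the members' levels was not tested.

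Mir375 was one of the highest rows of the whole table and did not separate the genotypes. Its level was 806138 normalized reads in control line 5-9, 657530 in line 2 and 697051 in line 16. In the PWS lines it was 683474 in line 3, 833397 in line 19-1 and 558022 in line 19-4. The highest and the lowest level both came from the subclones of the PWS line 19, and the control lines lay between them, so the groups overlapped fully. The mean level was 720240 ± 76970 normalized reads in control and 691631 ± 137869 in PWS lines (SD, n = 3 each), and the 6 lines spanned 1.49-fold. In bulk cultures such as these, fewer cells of a type and less RNA per cell cannot be told apart.

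Mir184 stood far lower and did not separate the genotypes either. It had 4517 normalized reads in control line 5-9, 4586 in line 2 and 4116 in line 16. The PWS lines had 5095 in line 3, 3868 in line 19-1 and 5421 in line 19-4. Lines 3 and 19-4 lay above all controls and line 19-1 below all of them. The mean was 4406 ± 254 normalized reads in control and 4795 ± 819 in PWS lines (SD, n = 3 each), and the 6 lines spanned 1.40-fold. These values rest on 3508 to 8579 reads per library, against 423277 to 1150799 for Mir375, so counting error was a small part of the spread between lines for both.

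**Figure D1:**
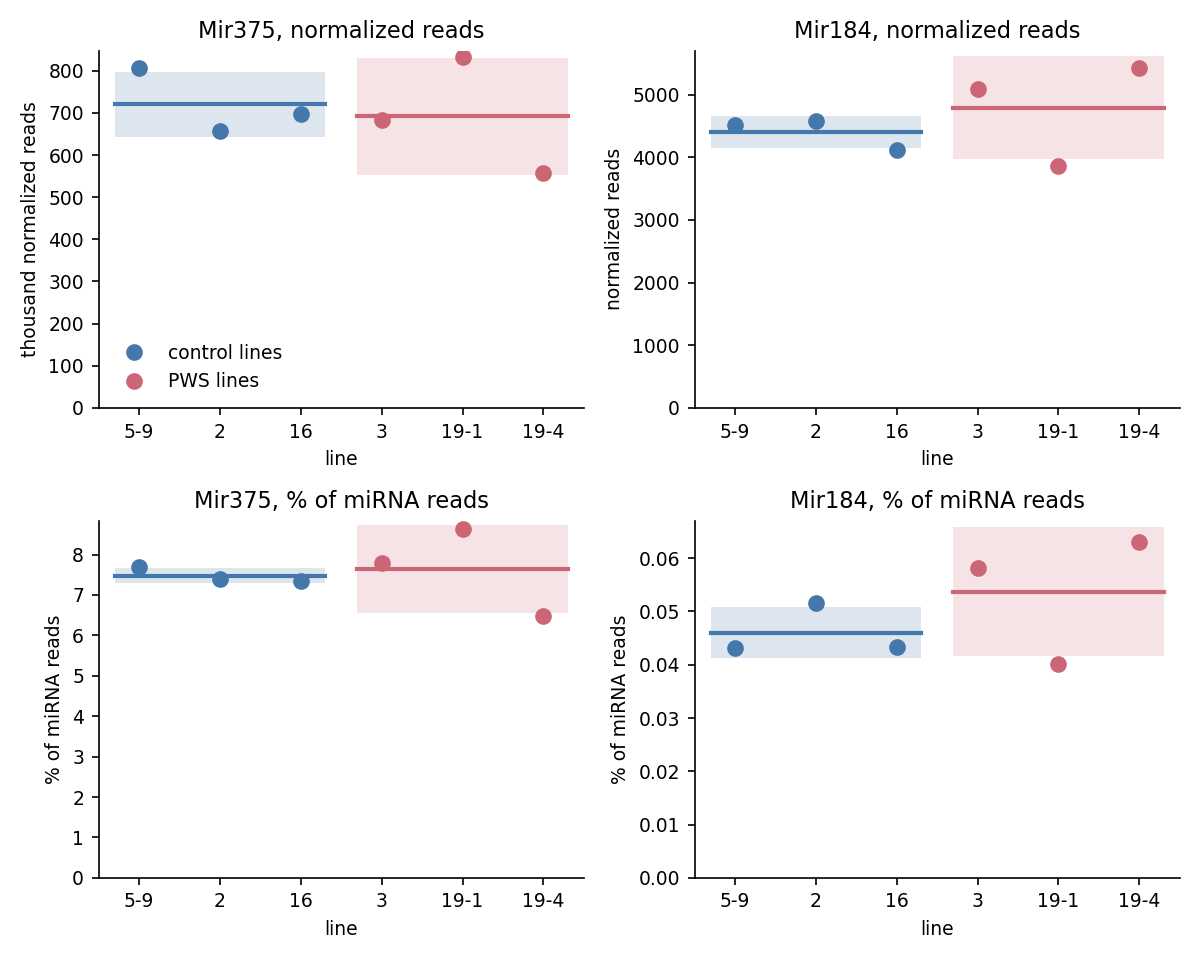
Levels of Mir375 (left) and Mir184 (right) in each line, as normalized reads (top) and as percent of all miRNA reads of the library (bottom). Points are lines, horizontal bars are group means and shaded bands are ± 1 SD (n = 3). Lines 19-1 and 19-4 hold the extreme values in all panels, in opposite order for the 2 genes.

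The difference between the genotypes was tested with limma-trend, fitted over the 4292 genes that averaged 5 or more normalized reads. P-values were adjusted by the Benjamini-Hochberg method over all of them. The fit draws the variance of each gene toward a trend over all genes tested, so its p-values and intervals also depend on those genes. A log2 fold change here is the mean log2(normalized reads + 1) of PWS lines minus that of control lines. For Mir375 it was -0.072 ± 0.20 (SE), and the limma adjusted p was 0.962 (unadjusted 0.720). Its 95% interval ran from -0.49 to 0.35, that is from 0.711-fold to 1.27-fold of control. For Mir184 it was 0.11 ± 0.22 (SE), and the limma adjusted p was 0.950 (unadjusted 0.634). Its 95% interval ran from -0.36 to 0.58, or from 0.777-fold to 1.50-fold.

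Of the members 0 of 2 were called at an adjusted p under 0.1, where 55 of the 4292 genes tested (1.28%) were called. Each of the 55 was lower in PWS lines. The paper reports that nearly all of its differing small RNAs belong to the PWS domain itself. How many of the 55 do was not counted here. Neither member reached an unadjusted p under 0.05 in limma, edgeR or DESeq2, while 256 genes did so in limma. Under this fit the intervals leave room for a change of either gene by up to the folds given above. Among the 258 miRNA rows tested 7 (2.71%) were called, which were Mir3065, Mir135b and 5 copies of Mir344, a family within the PWS domain. The median log2 fold change was -0.14 over the miRNA rows and below 0.01 over all genes tested, so that of Mir375 lay between these medians and that of Mir184 above both.

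**Figure D2:**
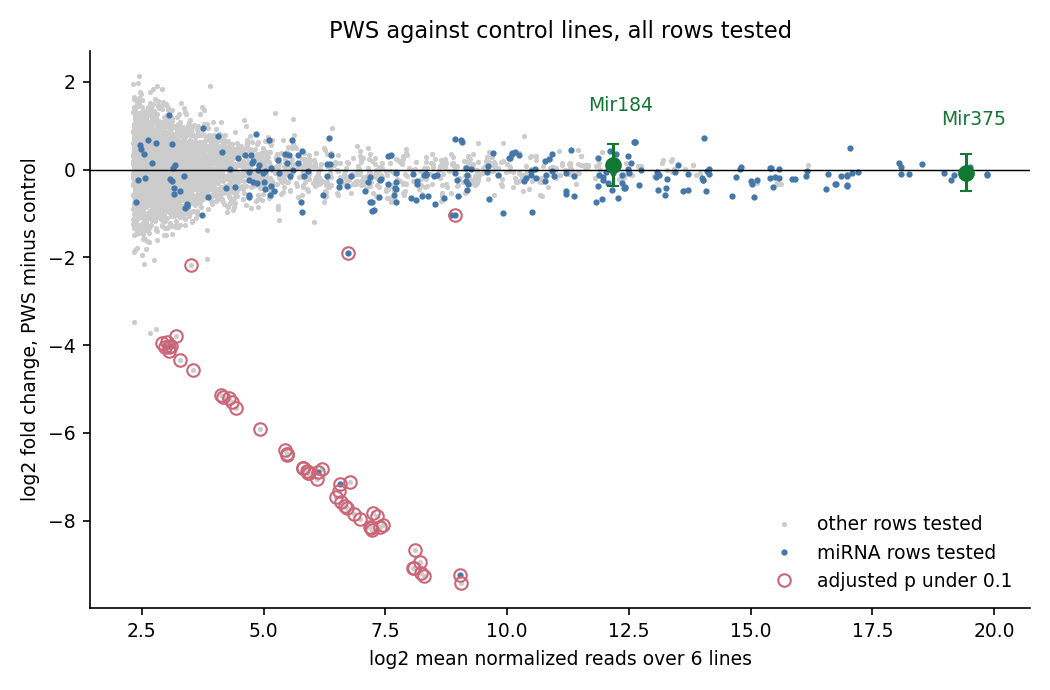
Log2 fold change of PWS against control lines (vertical) against the log2 mean of normalized reads over 6 lines (horizontal) for the 4292 rows tested, with miRNA rows in blue and called rows ringed. Mir375 and Mir184 are green with 95% intervals that span 0, to the right of and above the ringed rows.

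Each member was also expressed as a share of the miRNA reads of its own library, which takes the size factors out of the comparison. Mir375 held 7.69% of miRNA reads in control line 5-9, 7.39% in line 2 and 7.34% in line 16, and 7.79%, 8.64% and 6.48% in PWS lines 3, 19-1 and 19-4. The control shares were close to each other at 7.47% ± 0.187 (SD, n = 3), and the PWS shares of 7.64% ± 1.09 (SD, n = 3) lay on both sides of them. The difference did not pass an exact two-sided permutation test (p = 0.7, adjusted p = 0.7 over 3 measures). With 3 lines a group such a test cannot reach a p below 0.1.

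Mir184 held 0.0431% of miRNA reads in control line 5-9, 0.0515% in line 2 and 0.0434% in line 16, and 0.0581%, 0.0401% and 0.0630% in PWS lines 3, 19-1 and 19-4. The line with the highest share of Mir184 had the lowest of Mir375, and the reverse held for line 19-1. The shares averaged 0.0460% ± 0.00480 in control and 0.0537% ± 0.0120 in PWS lines (SD, n = 3 each; exact two-sided permutation p = 0.4, adjusted p = 0.7). With counting error alone the exact (Clopper-Pearson) 95% interval was 6.47% to 6.50% for Mir375 and 0.0611% to 0.0649% for Mir184. Both are for line 19-4, the shallowest library.

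By control mean Mir375 was 4th of the 456 miRNA rows and also 4th of all rows in the table, and it kept place 4 by the PWS mean. Within single lines its place among miRNA rows ran from 2 to 5. The rows above it were Mir7a1 and Mir7a2, which encode the same mature miRNA, so that a read of it cannot be traced to either copy, and Mir16, a broadly expressed miRNA. Counting rows with shared mature sequences once left 434 entries, of which Mir375 was number 3, also with the reads of such rows summed.

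Neighbours in that order were partly within the spread of Mir375. Mir16, at 727903 ± 114304 normalized reads in control lines (SD, n = 3), was below Mir375 in 4 of 6 lines and above it in lines 2 and 19-4. Mir148a, at 613413 ± 87170, was likewise lower in 4 of 6 lines, whereas Mirlet7f2 (614564 ± 59224) and Mirlet7i (528225 ± 51634), members of the let-7 family, were lower in all 6. Mir7a1 was above Mir375 in all lines but line 2, where it had 620377 normalized reads.

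Mir184 was number 84 of the 456 miRNA rows by control mean, of which 354 had reads, and number 76 by PWS mean. The 456 rows include Snora58, Scarna15, Scarna3 and Snora19, which RefSeq lists as miRNA although they bear names of small nucleolar or Cajal body RNAs, and without these 4 Mir184 was number 83 and Mir375 still number 4. Within lines its place ran from 69 in line 19-4 to 89 in line 19-1. Its nearest rows were close to it: Mir196b (4770 ± 532 normalized reads in control lines), Mir128-2 (4710 ± 328) and Mir30c1 (4488 ± 1322) stood above, and Mir582 (4399 ± 1813), Mir325 (4324 ± 969) and Mir34c (4305 ± 585) stood below (SD, n = 3). None of these 6 rows was on the same side of Mir184 in every line, so its place in this stretch was not resolved by 3 lines a group.

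**Figure D3:**
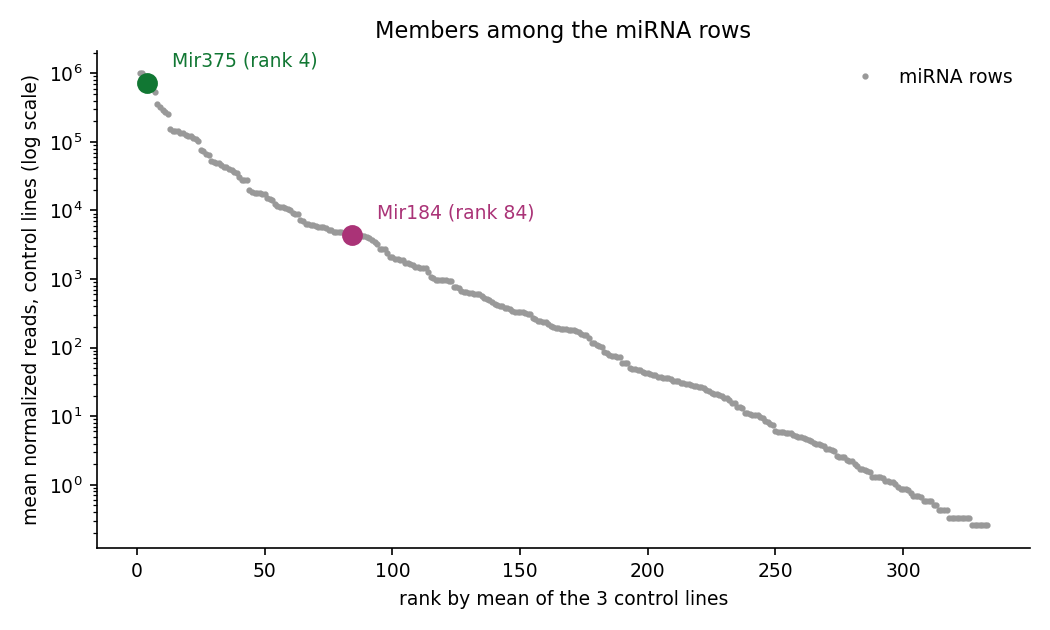
Mean normalized reads of the control lines (log scale) against rank for the miRNA rows with reads in control lines. Mir375 is at rank 4, on the steep left end, and Mir184 at rank 84, among the higher rows.

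The pool of miRNA reads was held by few rows. The 3 rows above Mir375 held 28.3% of the miRNA reads of control lines, or 35.8% together with Mir375 itself. The rows above Mir184 held 98.8% of them. One read stands for about one mature molecule whatever the gene, so levels were compared between the rows without scaling by length, although ligation and amplification can favour one sequence over another.

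Within each library Mir375 exceeded Mir184 by a factor of 178 in line 5-9, 143 in line 2 and 169 in line 16. The factor was 134 in PWS line 3, 215 in line 19-1 and 103 in line 19-4. It spanned 1.24-fold among control lines and 2.09-fold among PWS lines, with the extremes in the subclones of line 19. The log2 ratio was 7.35 ± 0.16 in control and 7.17 ± 0.54 in PWS lines (SD, n = 3 each), a difference of -0.18 (exact two-sided permutation p = 0.6, adjusted p = 0.7).

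The 2 subclones of line 19, which share their genotype, differed more in both members than the genotype means did. Line 19-4 had 0.670 times the Mir375 level of line 19-1, with a 95% counting interval of 0.667 to 0.672. For Mir184 it had 1.40 times the level, with an interval of 1.34 to 1.47. Intervals of this kind cover counting error of 1 library each and no variation between cultures. In size, whatever its direction, the difference was not unusual among the 177 miRNA rows that averaged 100 or more normalized reads. Of these, 62.7% differed by less than Mir375 between these lines and 52.5% by less than Mir184. In direction Mir184 went against the median of these rows, which was lower in line 19-4.

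The median of these 177 miRNA rows was itself 0.37 lower on the log2 scale in line 19-4 than in line 19-1. Against its mean over 6 lines the log2 level of Mir375 deviated by -0.33 in line 19-4, where the median miRNA row deviated by -0.31, and by 0.25 in line 19-1, where the median deviated by 0.070. In line 5-9 Mir375 deviated by 0.20 and the median by 0.25. The distance of Mir375 from the median miRNA row was largest in line 19-1, at 0.18.

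Mir184 did not follow the other miRNA rows in the same way. It deviated by 0.25 in line 19-4 and by -0.24 in line 19-1, and so lay 0.56 above and 0.31 below the median miRNA row of those lines. In line 5-9 it lay 0.26 below the median. The part of the size factors, which were set by the authors on all rows, in these deviations was not tested.

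**Figure D4:**
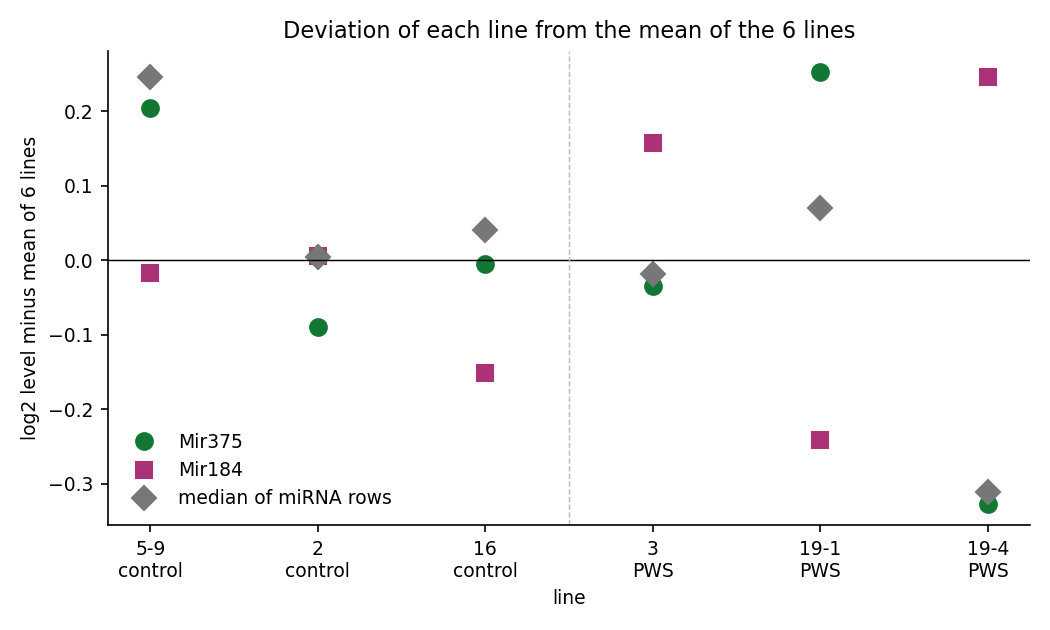
Log2 level of Mir375 (circles), Mir184 (squares) and the median of 177 miRNA rows (diamonds) in each line, minus the mean over the 6 lines. In line 19-4 Mir375 and the median are both about 0.3 below the mean and Mir184 is 0.25 above it, and in line 19-1 Mir184 is lowest.

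Both members varied less than most miRNA rows. The SD of the log2 level over the 6 lines was 0.21 for Mir375 and 0.18 for Mir184, against a median of 0.31 over the 177 rows. Of these rows 24.9% had a smaller SD than Mir375 and 16.4% a smaller one than Mir184. Within groups the coefficient of variation of normalized reads was 10.7% in control and 19.9% in PWS lines for Mir375, and 5.76% and 17.1% for Mir184. The difference in spread between the groups was not tested.

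Over the 6 libraries the log2 levels of the members moved in opposite directions, with a Pearson r of -0.78 and a Spearman rho of -0.89. With levels scaled to the miRNA reads of each library r was -0.70. Mir184 was second from the lowest of the 177 rows in its r with Mir375. Without lines 19-4 and 19-1, the farthest from the median of Mir375, r was -0.17 over the 4 lines left, which span a narrower range of Mir375, so the size of r rests on these subclones together. With 1 line left out at a time it ran from -0.86 to -0.57. The points share their size factors and, for the subclones, their origin, and no p-value is given.

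The 5 miRNA rows most like Mir375 across the 6 libraries, by Pearson r of the log2 level, were Mir322-2 (r = 0.987), Mir146b (0.986), Mir103a1 (0.951), Mir350 (0.945) and Mir3547 (0.938), of whose reads 16.0% were left where reads lying in overlapping genes had been dropped. Mir146b, for example, was lowest in line 19-4 with 14051 normalized reads and highest in line 19-1 with 20768, the same extremes as Mir375. For Mir184 the values were lower, at 0.807 for Mir28, 0.768 for Mir93, 0.733 for Mir25, 0.693 for Mir877 and 0.679 for Mir106b. Mir93, Mir25 and Mir106b are processed from a single cluster within the Mcm7 gene and so are not separate observations. These are the highest of 177 coefficients over 6 libraries each and describe these libraries only.

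Other miRNA families known from islets gave the members' surroundings. Of 37 such rows tested limma-trend called 0 in either direction, as did edgeR and limma-voom, while DESeq2 called Mir212 lower in PWS lines (DESeq2 adjusted p 0.0962). An unadjusted limma p under 0.05 was reached by 6 of the 37, by 39 of all 258 miRNA rows tested (15.1%) and by 256 of all 4292 genes (5.96%). The 6 include Mir124-1 and Mir124-2, which were also counted above as neuronal markers, since the lists share the 3 Mir124 rows. The others are Mir30c1 and Mir30c2, with similar levels, and Mir132 and Mir212. The 6 are thus not separate observations. The median log2 fold change of the 37 was -0.26, against -0.14 over all miRNA rows tested. It ran from -0.97 for Mir212, which is processed from the same transcript as Mir132 and had the smallest limma adjusted p of the list (0.238, and 0.128 with edgeR), to 0.49 for Mir192.

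Messenger RNAs described as targets were present as a few fragments only. Of 11 targets of miR-375 only 9 had reads, Cadm1 and Yap1 had none, and 3 were abundant enough to be tested. These were Rasd1, a Ras-like protein (15.1 normalized reads in control and 11.3 in PWS lines, log2 fold change -0.37 ± 0.43 SE), C1qbp, a mitochondrial protein (14.1 and 15.9, 0.23 ± 0.40), and Eef1e1, a factor of the tRNA synthetase complex (6.56 and 6.81, -0.29 ± 0.62). Mtpn had 23 reads over the 6 libraries. Of 3 targets of miR-184 only Ago2 was tested, with 7.68 normalized reads in control and 9.39 in PWS lines (log2 fold change 0.42 ± 0.49 SE), while Crtc1 had 24 reads and Slc25a22 had 22. In both lists 0 were called, and the standard errors show how loosely so few fragments fix these fold changes.

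Of 5 regulators of the members, 4 were tested and 0 called. Pdx1 and Neurod1, transcription factors of the β-cell that act on Mir375, had log2 fold changes of -0.24 ± 0.42 and -0.61 ± 0.36 (SE), and Prkaa2 and Prkaa1, catalytic subunits of the energy sensor AMPK, which is described to act on Mir184, had 0.38 ± 0.40 and 0.29 ± 0.56. The genes that make and load miRNAs were likewise not called in 7 of 7 tested, out of 13. Of these, Dgcr8, the partner of Drosha in cutting hairpins from their transcripts, had 3583 reads over the 6 libraries, but 31 were left in the table that drops reads lying in overlapping genes. Mir1306, a miRNA within Dgcr8, had 3540 reads and none left there, so the Dgcr8 row gives no measure of its messenger RNA. Limma-trend, edgeR, DESeq2 and limma-voom called 0 of the targets, regulators and machinery genes tested, and 0 had an unadjusted p under 0.05 with any of them. Without Dgcr8 the log2 fold changes of the 6 other machinery genes tested had a median of 0.15. They ran from -0.45 ± 0.37 (SE) for Dicer1, which cuts the hairpin to the mature length, to 0.59 ± 0.53 for Xpo5, which carries the hairpin out of the nucleus.

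Leaving out single lines moved the difference of Mir375 around 0. Its log2 fold change was 0.012 without control line 5-9, 0.073 without PWS line 19-4 and -0.22 without PWS line 19-1, and the gene was called in none of the settings tried. That of Mir184 stayed above 0, from 0.012 without PWS line 19-4 to 0.26 without PWS line 19-1, and was also never called. The direction for Mir375 flipped to 0.022 when levels were scaled to miRNA reads.

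**Figure D5:**
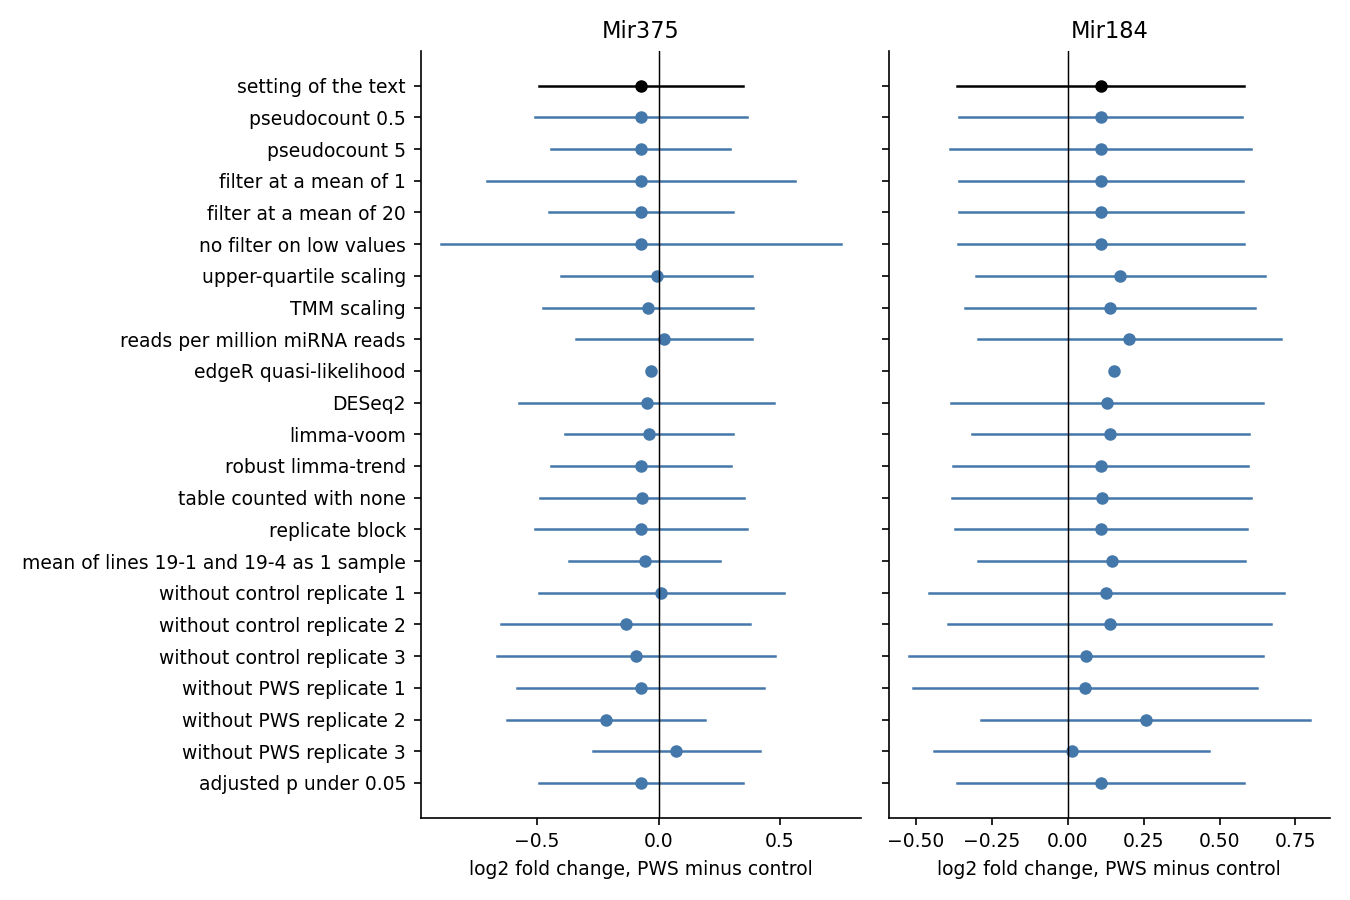
Log2 fold change of Mir375 (left) and Mir184 (right) under the setting of the text (black) and 22 alternatives (blue), with 95% intervals where the tool gives one. All intervals shown span 0, and the points of Mir375 lie on both sides of it.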

How the data were processed

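RNA of 3 control and 3 PWS lines was prepared with Trizol and an miRNeasy kit, and libraries with a QIAseq miRNA kit adapted to RNAs under 200 nt. The submitters' processing notes name UMI-tools 1.0.0, cutadapt 1.18, Bowtie2 2.3.4.2, HTSeq 0.11.2, featureCounts, DESeq2 and Rnor_6.0. The authors deposited 2 tables of a signal, gene counts divided by DESeq2 size factors, that differ in whether a read lying in overlapping genes was added to each ("all", used here) or dropped ("none"). Both members and both Mir7a rows had the same reads in both. The tables also hold the authors' mean, log2 fold change, standard error and p-values, which were not used. All values above 0 (100%) were whole multiples of 1 read within a tolerance of 0.001, so reads were recovered. Count tests on them called 59 genes with edgeR 4.0.16, 58 with DESeq2 1.42.0 and 48 with limma-voom.

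The test was limma-trend (limma 3.58.1, R 4.3.3) with genotype as the sole term, a pseudocount of 1 and calls at an adjusted p under 0.1. It was checked on simulated reads. Shares and the ratio were compared by exact permutation (Python 3.11.15), adjusted over 3 measures. miRNA rows were those named Mir or with that biotype in RefSeq. Coverage of each row, not of each arm, sets the precision. Genes named were the members, the 3 rows on either side by control mean, the 5 most alike miRNA rows, genes next to them, and of the related lists those called or otherwise the 3 with the highest mean. Members, lists and tests were chosen with earlier results of these data known. Mtpn, Cadm1, Yap1, the regulators and the machinery genes, Mir1306, Mir212 and Mir192, the cell type markers, 4 rows with snoRNA-like names and the called miRNA rows were named beyond that rule, after their values were seen.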

Additional observations from a re-analysis of the deposited data

How the results depend on the processing

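Neither member was called under any of 22 alternatives to the fit, with adjusted p from 0.930 to 0.9999 for Mir375 and 0.913 to 0.9999 for Mir184. The log2 fold change of Mir375 reversed to 0.022 when scaled to miRNA reads and to 0.012 without control line 5-9, and with 1 line left out ran from -0.22 to 0.073. That of Mir184 ran from 0.012 to 0.26 with 1 line left out and kept its direction in 22 of 22. With 1 line left out the difference in share ran from -0.34 to 0.74 percentage points for Mir375, reversed without PWS line 19-1, and from 0.0031 to 0.0146 for Mir184. The difference in log2 ratio ran from -0.47 to 0.060, reversed without PWS line 19-4. Other alternatives reversed none of the 3, and 41 to 66 genes were called over all settings (44 to 58 with 1 line left out). Counting shared mature sequences once moved Mir184 from place 84 to 75, as did summing them. Summing them and taking miRNA rows by symbol alone were added after the data were seen.

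With the replicate number as a block, the log2 fold change was -0.072 for Mir375 (limma adjusted p 0.962) and 0.11 for Mir184 (0.948), and 56 genes were called. The exact permutation p within pairs was 0.75 for the Mir375 share, 0.5 for the Mir184 share and 0.75 for the ratio. With 3 pairs this test cannot reach even 0.1, the smallest p of the unpaired test. Same-numbered lines correlated in their deviations by 0.414, 0.218 and -0.0574 over 1087 genes, and 3 of 6 lines correlated best with the line of their own number, so the numbers were not taken as pairs.

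The PWS group holds 2 subclones among its 3 lines. The 95% intervals, from 0.711-fold to 1.27-fold for Mir375 and from 0.777-fold to 1.50-fold for Mir184, say which differences these data leave possible and are not limits of detection: Mir212, at a log2 fold change of -0.97 ± 0.28 (SE), was not called by limma-trend either (adjusted p 0.238).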
